A study of Mus musculus with 32 samples.

Results

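Aphidicolin inhibits the replicative DNA polymerases, and here its effect was read after 24 h in 1 line of mouse embryonic fibroblasts that lacks ATMIN. The members are 4 of the 32 RNA-sequencing samples of the series, taken by their column names in the table of read counts. In both groups the cells were the ATMIN knock-out line. One group received 1 µM aphidicolin and the other DMSO, the solvent, for 24 h, with 2 samples each. The series also holds this line at 4 h, an ATM knock-out line, and a wild-type line for each knock-out (wtATM and wtATMIN), under the same agents and times. Some of these serve for comparison: wtATMIN with aphidicolin or DMSO for 24 h, and the ATMIN knock-out with either for 4 h, again with 2 samples each. The allele behind the knock-out is not given in the labels, and since each genotype is 1 line, an effect of the genotype and of the line cannot be told apart. Nothing in the labels tells whether the pair of samples in a group came from different cultures, so p-values reflect only the spread between samples, which may be technical.

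When the replicative polymerases stall, the helicase runs ahead and leaves single-stranded DNA, which activates the kinase ATR. Broken forks activate ATM and p53, and homologous recombination and the Fanconi pathway repair and restart them. ATMIN binds ATM through a short motif and is known for its part in signalling after replication stress, and as a zinc finger transcription factor it drives Dynll1, the gene of a dynein light chain. Embryonic fibroblasts secrete collagen matrix, and DNA that leaks into their cytosol can start interferon signalling through cGAS and STING.

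Reads in genes numbered 16064941 and 15250120 in the DMSO samples and 17311187 and 15276353 in the aphidicolin samples, within the series' range of 9321329 to 21020662. Values below are CPM, counts scaled to the normalised library size, given for replicate 1 and then replicate 2. Log2 fold changes carry a standard error worked back from the change and the F statistic of its test. It is thus not independent of the p-value. The 2 replicates correlated at 0.994 in each group. The ribosomal sequence Gm42418 was at 576 and 537 CPM with DMSO and at 321 and 328 CPM with aphidicolin. Summed fibroblast markers stood between 22592.5 and 24029 CPM with DMSO and between 15023 and 15958 CPM with aphidicolin, and 7 of the 12 were called lower and 0 higher. The 8 epithelial markers summed to at most 0.996 CPM and the 7 endothelial markers to at most 1.47 CPM in any of the 4 libraries, and blood markers to between 17.3 and 20.5 CPM with Ptprc, Adgre1 and Cd3e at 0 in every one. Cd68, a lysosomal marker of macrophages, was the blood marker called higher. Neural markers summed to between 174 and 189.5 CPM, with Sox10 at 0 throughout, muscle markers to between 6.65 and 10.9 CPM, and adipocyte markers to 99.2 and 108 CPM with DMSO and 71.6 and 64.3 CPM with aphidicolin. In bulk RNA, fewer cells of a type and less RNA per cell cannot be told apart.

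The targeted gene was read first. Atmin, the gene of ATMIN, was at 5.2 and 5.81 CPM with DMSO and at 6.77 and 6.65 CPM with aphidicolin in the knock-out. In wtATMIN it stood at 20.7 and 20.4 CPM with DMSO and at 27.2 and 29.8 CPM with aphidicolin, so all 4 knock-out libraries lay below all 4 wild-type ones. In the knock-out, Atmin did not pass the test between aphidicolin and DMSO (log2 difference 0.29 ± 0.14, adjusted p = 0.137, from the quasi-likelihood test of edgeR after Benjamini-Hochberg adjustment over all genes). Dynll1, the target of ATMIN, was at 30.3 and 28.9 CPM with DMSO and at 46.5 and 44.5 CPM with aphidicolin, a rise of 0.62 ± 0.08 (adjusted p = 1.39e-07). Its wtATMIN levels were 202 and 192 CPM with DMSO and 205 and 206 CPM with aphidicolin. Every knock-out library thus held far less Dynll1 than every wild-type one, and the response was larger in the knock-out by 0.56 ± 0.10 (adjusted p = 0.000988). Atm, the kinase itself, rose by 0.54 ± 0.13 (adjusted p = 0.0038), from 103 and 95.2 CPM to 136 and 151 CPM. Of the 7 genes of the list of ATMIN, ATM and their partners, 2 were called higher and 1 lower, and the lower count was 0 without any single library.

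After 24 h of aphidicolin the knock-out cells held more RNA of p53 targets, of interferon-stimulated antiviral genes, of recombination, Fanconi and replication-fork genes and of many mitotic genes. RNA of sterol and fatty acid synthesis and of glycolysis was lower, as was that of 12 of 20 collagens (8 with libraries scaled by size alone). Of 59 replication-dependent histone genes 21 were called lower and 38 were not called. Of 18484 genes tested, 5575 were called at an adjusted p under 0.05 (30.2%), 2648 of them higher (14.3%) and 2927 lower (15.8%). Most changes were small: the median was 0.46 among genes called higher and -0.43 among those called lower, and 375 rose and 197 fell by more than 2-fold. With libraries scaled by their size alone the split moved to 3611 higher and 1911 lower (65.4% against 47.5% higher).

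Over all called genes the changes ran from -5.20 to 5.46. Rises and falls named here had a mean of at least 2 CPM, and clone and predicted-gene names were left out. The largest such rises included a pair of p53 targets and an interferon-stimulated gene. They were Pmaip1 (2.4), which encodes the BH3-only protein NOXA, Strip2 (2.25), a scaffold subunit of phosphatase complexes, Cd80 (2.23), a costimulatory ligand, and Inka2 (2.14), an inhibitor of the kinase PAK4. Atg9b, an autophagy lipid scramblase, Fmo5, a flavin monooxygenase, Ggt7, Rsad2, Trp53inp1 and Ndrg4 followed, with log2 changes between 1.88 and 2.03. Ndrg4 went from 7.82 and 7.52 CPM to 26.6 and 29.9 CPM. The largest such falls were Dio3 (-2.28), the deiodinase that inactivates thyroid hormone, and Ogn (-2.16), a small leucine-rich proteoglycan of the matrix. Ogn was at 223 and 238 CPM with DMSO and at 54.3 and 48.5 CPM with aphidicolin, so the aphidicolin libraries held less than the lowest DMSO library by a wide margin. Next came Phactr1 (-1.97), a regulator of actin and protein phosphatase 1, Gas1 (-1.92), a hedgehog co-receptor, Il1rn (-1.91), the antagonist of the interleukin-1 receptor, Gna14 (-1.85), a G protein subunit, and Aspn (-1.81), another leucine-rich proteoglycan. The linker histone Hist1h1c (-1.75), the core histone Hist1h2bc (-1.75) and the Notch coactivator Maml3 (-1.73) complete the list.

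**Figure D1:**
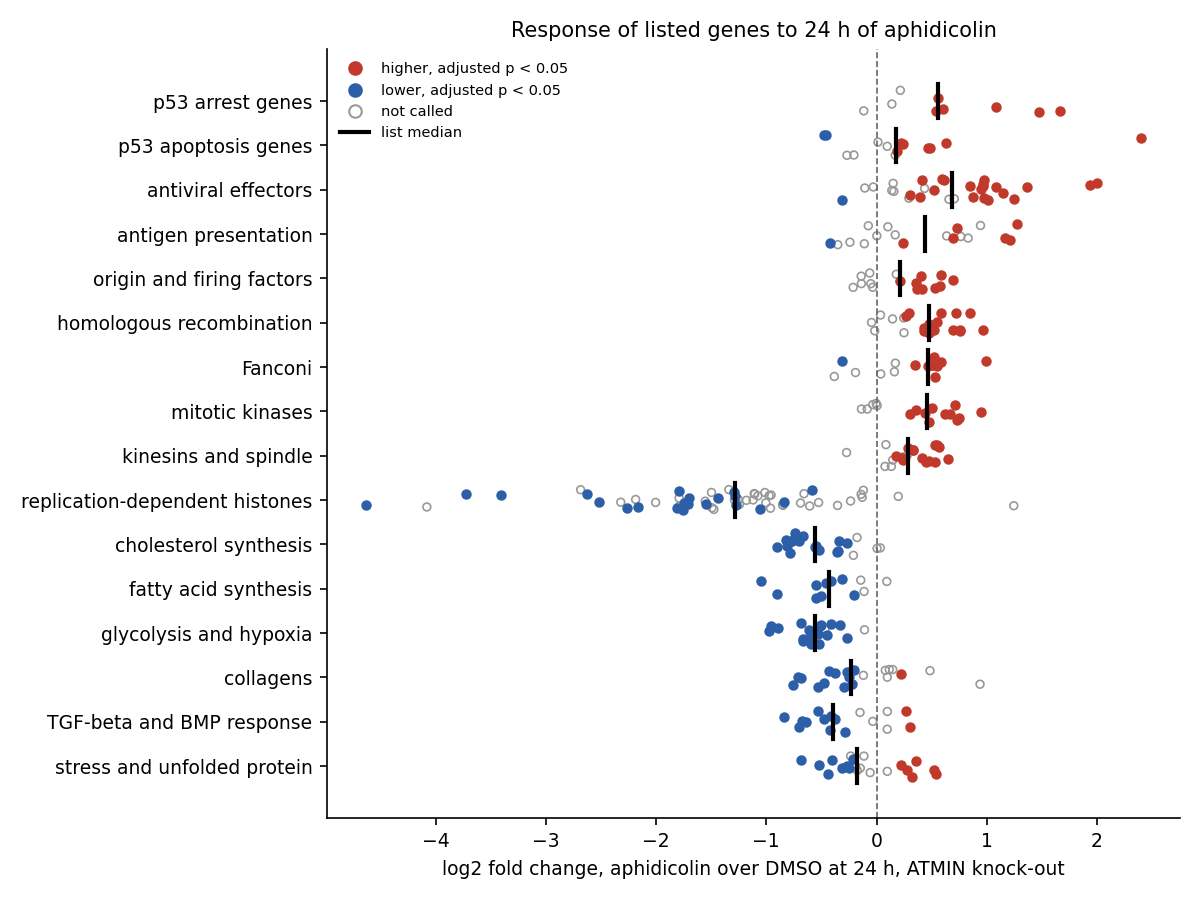
Log2 fold change of aphidicolin against DMSO after 24 h in the ATMIN knock-out for the tested members of 16 gene lists, 1 point per gene (red, called higher; blue, called lower; open, not called), with black bars at list medians. Recombination and antiviral genes lie mostly above 0, while cholesterol synthesis (16 of 20 called lower), glycolysis (18 of 20) and replication-dependent histones lie mostly below it.

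The p53 targets were taken by role. Trp53 itself did not pass the test (-0.07, adjusted p = 0.374). Of 53 tested genes of the pathway 30 were called higher and 5 lower (3 lower without aphidicolin replicate 2), with a median of 0.39, against 14.3% and 15.8% of all genes. In the list of p53 and its regulators 5 of 8 genes were called higher. Mdm2, the ubiquitin ligase that removes p53, was at 46.5 and 43.7 CPM with DMSO and at 90 and 86.7 CPM with aphidicolin. The 2 groups did not overlap, and it rose by 0.97 ± 0.07 (adjusted p = 2.6e-13). Trp53inp1, a p53 cofactor, went from 11.7 and 12.3 CPM to 45.5 and 45.3 CPM and rose by 1.92 ± 0.11 (adjusted p = 6.44e-15).

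Of 9 genes of cell cycle arrest 6 were called higher and 0 lower. Cdkn1a, which encodes the CDK inhibitor p21, was at 8.06 and 5.43 CPM with DMSO and at 14.2 and 14.6 CPM with aphidicolin. Its DMSO libraries differed from each other by more than its aphidicolin libraries did, yet both lay below them, and the rise was 1.09 ± 0.18 (adjusted p = 4.31e-05). Btg2, an antiproliferative adaptor of mRNA deadenylation, rose by 1.48 ± 0.09, from 31.2 and 26.4 CPM to 79.8 and 80.9 CPM. Among 14 apoptosis genes 7 were called higher and 2 lower. Pmaip1 was at 1.25 and 1.14 CPM with DMSO and at 6.56 and 6.12 CPM with aphidicolin. The pore-forming protein Bax fell by 0.48, Bbc3, the gene of the BH3-only protein PUMA, did not pass the test (0.10, adjusted p = 0.767), and the membrane protein Perp did not either (0.17, adjusted p = 0.0874). The 7 higher calls became 4 without DMSO replicate 1, 4 without DMSO replicate 2, 3 without aphidicolin replicate 1 and 4 without aphidicolin replicate 2. Of 22 targets in repair, metabolism and signalling 12 were called higher and 2 lower (1 lower without any single library), among the higher ones Eda2r (1.79), a receptor of the TNF family, and Rrm2b (0.86), the p53-inducible subunit of ribonucleotide reductase.

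Interferon-stimulated genes carry a known promoter element, so their promoters are shown before their values. The motif GAAA, 2 bases of any kind and GAAA again, a form of the interferon-stimulated response element, was searched on both strands in RefSeq promoters on GRCm38.p6, from 250 bases before to 50 after each start. It occurred in 3.99% of all 27025 genes with a promoter in the table and in 3.75% of the 11788 tested genes that matched by symbol. In the interferon and innate immunity lists 31 of 77 matched genes held it (40.3%). Among the members called higher 16 of 40 did (40%), and among those called lower 3 of 6 (50%). A match describes letters in this window and is not a site or a cause. The 250 bases before the start of 2 genes that rose follow, 5′ to 3′ on the gene's strand, with the motif in capitals. Isg15 lies at chr4:156200819-156201068 (minus strand) and Rsad2 at chr12:26456453-26456702 (minus strand).
Isg15: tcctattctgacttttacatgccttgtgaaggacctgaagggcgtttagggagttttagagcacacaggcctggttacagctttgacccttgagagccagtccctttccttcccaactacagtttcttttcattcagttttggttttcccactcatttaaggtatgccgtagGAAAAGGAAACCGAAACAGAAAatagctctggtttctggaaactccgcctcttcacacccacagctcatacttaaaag
Rsad2: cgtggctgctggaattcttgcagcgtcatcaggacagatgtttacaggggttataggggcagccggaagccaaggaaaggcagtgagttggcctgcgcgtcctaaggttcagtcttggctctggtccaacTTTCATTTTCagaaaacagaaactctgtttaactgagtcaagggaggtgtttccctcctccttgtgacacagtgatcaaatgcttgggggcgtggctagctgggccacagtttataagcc
In Isg15 3 overlapping matches ran together, and in Rsad2 there was 1.

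Across the 97 tested genes of interferon and innate immunity 50 were called higher and 7 lower, with a median of 0.44. The lower calls were 4 without DMSO replicate 1 or without aphidicolin replicate 2. Of 14 sensors and adaptors 10 were called higher. Cgas, the sensor of cytosolic DNA, went from 20.5 and 21.1 CPM to 34.3 and 35.3 CPM (0.74 ± 0.10), and Ddx58, the RNA sensor RIG-I, from 38.2 and 39.4 CPM to 66 and 65.2 CPM (0.76 ± 0.10). Tmem173, which encodes STING, did not pass the test (0.19). Among 11 transcription factors of the pathway 6 were called higher and 1 lower, but only 3 were called higher without DMSO replicate 2 and likewise without aphidicolin replicate 1. Irf7, the factor that amplifies interferon production, was at 2.27 and 2.97 CPM with DMSO and at 7.76 and 8.54 CPM with aphidicolin, a rise of 1.64 ± 0.22. The 10 interferon receptors and signalling genes were split, with 3 higher and 3 lower, and without any single library at most 1 was called higher.

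Among 30 antiviral effectors 20 were called higher and 1 lower, with a median of 0.68. Without DMSO replicate 1, 13 were called higher. Rsad2, the radical enzyme viperin, was at 2.75 and 2.53 CPM with DMSO and at 9.96 and 10.3 CPM with aphidicolin, and rose by 1.94 ± 0.23 (adjusted p = 4.92e-08). Isg15, a ubiquitin-like modifier, rose by 0.98 ± 0.11, from 16.2 and 15.4 CPM to 31.8 and 30.6 CPM. In both genes each aphidicolin library lay above each DMSO library. Reads of near-identical neighbours in the Oas, Gbp, Ifi and H2 families may be split between copies, so those genes are uncertain singly. Of 18 antigen presentation genes 6 were called higher and 1 lower. H2-K1, a class I histocompatibility heavy chain, went from 48 and 47.6 CPM to 117 and 114 CPM (1.27 ± 0.10), and Tap1, a subunit of the peptide transporter, from 2.57 and 2.4 CPM to 5.45 and 6.12 CPM (1.21 ± 0.18).

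Chemokines were uneven. Of 14 tested 4 were called higher and 2 lower, and the median was 0.04 (0.08 without 1 gene at or under 3 counts in both groups). Cxcl10, an interferon-induced chemokine, was at 24 and 22.2 CPM with DMSO and at 69.4 and 67.6 CPM with aphidicolin (1.57). Cxcl12, the ligand of CXCR4, went the other way, from 186 and 191 CPM to 68.3 and 70.1 CPM (-1.45). Among 14 NF-kB subunits and inhibitors 8 were called higher and 3 lower. Without DMSO replicate 1 these were 4 and 1, and without aphidicolin replicate 2 the lower calls were 1. Nfkb2, which encodes the p100 subunit, rose by 0.74 ± 0.07, from 86 and 82 CPM to 140 and 142 CPM.

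**Figure D2:**
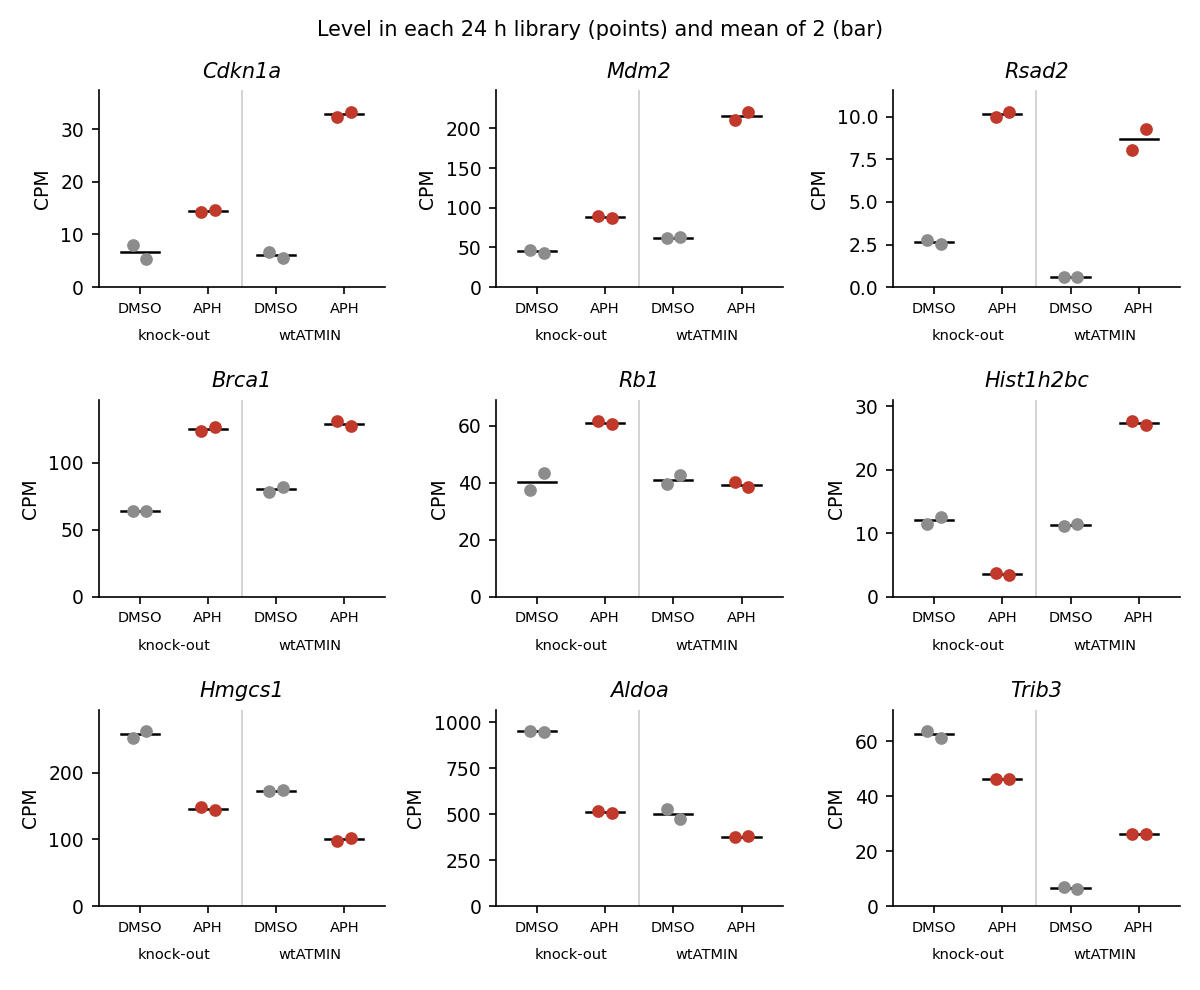
CPM of 9 genes in the 8 libraries taken at 24 h (ATMIN knock-out and wtATMIN, DMSO and aphidicolin), with 1 point per library and a bar at the mean of 2. Brca1 and Mdm2 are higher with aphidicolin in both lines, whereas Hist1h2bc falls to 3.72 and 3.42 CPM in the knock-out and rises to 27.7 and 27.1 CPM in wtATMIN.

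Genes of the replication fork were next. E2F factors bind forms of TTTCCCGC and TTTGGCGC in many of them, and the search of both forms, both strands, found them in 1.8% of all promoters of this length and in 3.23% of those of tested genes. In the DNA replication lists 18 of 75 matched genes held one (24.0%). Of the 40 called higher 6 did (15%), and of the 6 called lower 2 did (33.3%). In the checkpoint and recombination lists, searched after their values were known, 7 of 46 held one (15.2%), and all 7 were among the 28 called higher (25%). Only 1 matched member there was called lower, and it held none. The 250 bases before the start of E2f7 (chr10:110745189-110745438, plus strand), an E2F repressor, and of Brca2 (chr5:150522371-150522620, plus strand), a mediator of recombination, follow with the motif in capitals.
E2f7: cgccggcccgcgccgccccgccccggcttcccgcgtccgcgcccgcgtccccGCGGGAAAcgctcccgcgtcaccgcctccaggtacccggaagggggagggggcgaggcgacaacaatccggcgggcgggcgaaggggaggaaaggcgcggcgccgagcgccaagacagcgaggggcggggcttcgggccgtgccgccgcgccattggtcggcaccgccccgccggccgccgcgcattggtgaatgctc
Brca2: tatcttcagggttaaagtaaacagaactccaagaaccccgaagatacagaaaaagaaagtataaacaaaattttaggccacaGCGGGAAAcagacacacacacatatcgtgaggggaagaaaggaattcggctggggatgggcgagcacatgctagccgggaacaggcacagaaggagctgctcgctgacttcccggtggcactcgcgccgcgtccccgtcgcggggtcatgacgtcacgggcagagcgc
Each of the pair held 1 match in this window, and both genes rose.

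Of 92 tested genes of DNA replication 49 were called higher and 8 lower (5 lower without aphidicolin replicate 2), with a median of 0.26. Origin and firing factors had 9 of 17 higher and 0 lower, led by Cdc7 (0.69 ± 0.09), the kinase that fires origins, at 61.8 and 60.6 CPM with DMSO and at 101 and 96.6 CPM with aphidicolin. The helicase subunits did not share this direction: Mcm6 fell by 0.33 and Mcm7 stood at 0.00, whereas Mcm10, a helicase activator, rose by 0.72. Among 12 polymerase genes of the fork 4 were called higher and 1 lower, and without DMSO replicate 2 or without aphidicolin replicate 1 only 2 were higher. Pole, the leading-strand catalytic subunit, rose by 0.60 ± 0.07, from 185 and 178 CPM to 266 and 283 CPM. Pola1, the catalytic subunit of polymerase alpha, did not pass the test (-0.23, adjusted p = 0.186). Of 18 clamp, loader and fork factors 11 were called higher and 1 lower. Ung, a uracil glycosylase, was that exception, at 33.7 and 30.9 CPM with DMSO and at 10.9 and 11.4 CPM with aphidicolin (-1.53). Pcna, the sliding clamp, did not pass (0.09, adjusted p = 0.248).

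Nucleotide supply had 7 of 12 genes higher and 1 lower. Rrm2, the S-phase subunit of ribonucleotide reductase, went from 119 and 120 CPM to 212 and 214 CPM (0.84). In the E2F and retinoblastoma families 9 of 13 were called higher and 2 lower (1 to 2 lower without a library). E2f7 rose by 0.51, from 33.9 and 37.5 CPM to 51.1 and 50.3 CPM. Rb1, the retinoblastoma protein, was at 37.3 and 43.3 CPM with DMSO and at 61.6 and 60.6 CPM with aphidicolin (0.60 ± 0.09), so the aphidicolin pair lay above the DMSO pair. Of 10 translesion polymerase genes 5 were called higher and 0 lower, among them Polq (0.83), the polymerase of end joining, and Polh (0.51), the polymerase that passes ultraviolet lesions.

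Homologous recombination was the most one-sided of the repair lists. Of 21 genes 15 were called higher and 0 lower, with a median of 0.48. Brca1, which directs end resection, was at 63.8 and 64.1 CPM with DMSO and at 123 and 127 CPM with aphidicolin. The pairs stood apart and the rise was 0.97 ± 0.08 (adjusted p = 6.42e-12). Brca2 rose by 0.85, from 46.5 and 47.2 CPM to 82.6 and 86.7 CPM. Among 15 Fanconi genes 9 were called higher and 1 lower, and Fancd2, the ubiquitinated protein of the pathway, went from 42.8 and 39.8 CPM to 84.8 and 80 CPM (1.00).

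Checkpoint genes were less uniform. Of 25 tested 12 were called higher and 2 lower. Without DMSO replicate 1 the higher calls were 7, and without any single library the lower calls were 1. Clspn, which encodes the CHK1 mediator claspin, rose by 0.86, from 82.6 and 85.4 CPM to 155 and 150 CPM, and Mdc1, the mediator that binds phosphorylated H2AX, by 0.60. The kinase genes Atr (-0.15, adjusted p = 0.49) and Chek1 (-0.15, adjusted p = 0.29) did not pass the test. H2afx, the gene of H2AX itself, fell by 0.56 ± 0.09 (adjusted p = 1.1e-05).

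Mitotic genes were higher as well. Of 90 tested genes of mitosis and the cell cycle 57 were called higher and 6 lower, with a median of 0.30. CCAAT, the box bound by NF-Y, occurred in the promoters of 48 of 74 matched members (64.9%), against 43.0% of tested genes. Of 16 mitotic kinases and regulators 11 were called higher and 0 lower, with Mastl, the kinase upstream of phosphatase 2A inhibition, at 0.95. The kinases Aurka (-0.03, adjusted p = 0.763) and Plk1 (-0.14, adjusted p = 0.131) did not pass the test. Kinesins and spindle genes had 14 of 21 higher and 0 lower, among them Nusap1, a spindle microtubule binder, at 91.4 and 95.1 CPM with DMSO and at 142 and 134 CPM with aphidicolin (0.57). Among 21 anaphase and spindle checkpoint genes 13 were called higher and 1 lower. That 1 was Cdc20, the activator of the anaphase-promoting complex, which fell by 0.60, from 203 and 198 CPM to 133 and 131 CPM. Spc25, of the kinetochore NDC80 complex, rose by 0.88, from 43.5 and 47.9 CPM to 85.6 and 82.1 CPM. Of 6 CDK inhibitors of the INK4 and KIP kinds 2 were called higher and 2 lower. Cdkn2b fell by 0.80 and Cdkn2a by 0.61, whereas Cdkn2d rose by 0.71.

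Replication-dependent histone genes were lower or not called. Of 59 tested 21 were called lower and 0 higher, with a median of -1.28. Both aphidicolin libraries were at 0 for 2 of them, and with these set at a bound of 3 counts over the group the median was -1.25. The count of lower calls was 14 without DMSO replicate 1, 11 without DMSO replicate 2, 9 without aphidicolin replicate 1 and 13 without aphidicolin replicate 2. These genes are near-identical copies whose reads may be split, and most of their mRNAs lack a poly(A) tail in dividing cells. Their levels here were low. Hist1h2bc was at 11.5 and 12.6 CPM with DMSO and at 3.72 and 3.42 CPM with aphidicolin, and fell by 1.75 ± 0.18 (adjusted p = 3.69e-09). Hist1h1c fell by 1.75 ± 0.14, from 22.9 and 25.8 CPM to 7.13 and 7.30 CPM. In both, the lowest DMSO library held over 2-fold the highest aphidicolin library. Slbp, the protein that binds the stem-loop at the end of histone mRNA, rose by 0.74, from 69 and 71.3 CPM to 125 and 110 CPM. Gm42418, the ribosomal sequence, was also lower in the aphidicolin libraries, and its part in these values was not tested. A CCAAT search chosen after the values were seen found the box in 45 of 54 matched histone promoters (83.3%), and in 16 of the 19 called lower (84.2%). The promoter of Hist1h1c (chr13:23738557-23738806, plus strand; H1f2 in RefSeq) is shown with the box in capitals.
Hist1h1c: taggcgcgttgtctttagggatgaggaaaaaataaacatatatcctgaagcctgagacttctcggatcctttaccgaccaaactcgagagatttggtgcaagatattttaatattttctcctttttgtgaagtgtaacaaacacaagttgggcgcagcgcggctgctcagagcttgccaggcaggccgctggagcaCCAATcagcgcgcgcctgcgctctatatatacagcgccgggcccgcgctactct

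Most genes of lipid synthesis fell. Of 20 cholesterol synthesis genes 16 were called lower and 0 higher, with a median of -0.56, against 15.8% lower among all genes. Hmgcs1, which makes HMG-CoA at the head of the pathway, was at 253 and 263 CPM with DMSO and at 148 and 144 CPM with aphidicolin. The groups did not overlap and the fall was by 0.82 ± 0.07 (adjusted p = 3.4e-11). Sqle, the squalene epoxidase, fell by 0.90, and Lss, the lanosterol synthase, by 0.75, from 73.2 and 70.1 CPM to 41.6 and 43.5 CPM. Of 13 genes of sterol control and uptake 7 were called lower and 1 higher, with Srebf2, the master factor of the pathway, at -0.32. Of 12 fatty acid synthesis genes 9 were called lower and 0 higher. Scd2, a stearoyl-CoA desaturase, went from 1753 and 1764 CPM to 929 and 948 CPM (-0.91). TCACNCCAC, a form of the sterol regulatory element, was found in 1 of 15 matched cholesterol promoters (6.67%), against 1.39% of tested genes, and in 0 of 8 of the control and uptake genes. That promoter was of Hmgcs1 (chr13:119690101-119690350, plus strand), shown with the element in capitals.
Hmgcs1: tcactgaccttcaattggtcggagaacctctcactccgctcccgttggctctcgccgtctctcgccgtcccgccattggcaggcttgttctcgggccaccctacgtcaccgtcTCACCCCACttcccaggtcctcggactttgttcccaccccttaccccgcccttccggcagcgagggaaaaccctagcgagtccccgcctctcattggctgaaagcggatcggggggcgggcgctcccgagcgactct

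Glycolysis and hypoxia genes were nearly uniform: 18 of 20 were called lower and 0 higher, with a median of -0.55. Eno1, an enolase, was at 1558 and 1542 CPM with DMSO and at 803 and 791 CPM with aphidicolin (-0.96). Aldoa, an aldolase, fell by 0.89 ± 0.08, from 956 and 950 CPM to 520 and 508 CPM. Pkm, the pyruvate kinase, fell by 0.68, from 3219 and 3195 CPM to 2008 and 1987 CPM. In all 3 each aphidicolin library lay well under each DMSO library. Egln3, an oxygen-sensing hydroxylase that hypoxia induces, stood at -0.97, Ldha, lactate dehydrogenase, at -0.67, and Slc2a1, the glucose transporter, at -0.51.

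Matrix genes fell in part. Of 97 tested genes of matrix, TGF-beta and contraction 47 were called lower and 11 higher, or 36 and 13 with libraries scaled by size alone. The higher calls were 7 without DMSO replicate 1, 5 without DMSO replicate 2, 6 without aphidicolin replicate 1 and 5 without aphidicolin replicate 2. Collagens had 12 of 20 lower and 1 higher, with a median of -0.23. With libraries scaled by size alone 8 collagens were called lower and 2 higher. Col1a1, a chain of type I collagen, was at 7114 and 6595 CPM with DMSO and at 4007 and 4360 CPM with aphidicolin, and fell by 0.71 ± 0.16. Col3a1, of type III collagen, fell by 0.53, from 2316 and 2248 CPM to 1588 and 1582 CPM. Among 16 TGF-beta and BMP genes 10 were called lower and 2 higher, the latter 0 to 1 when a library was left out. Tgfbr2, the type II receptor, fell by 0.84, from 354 and 342 CPM to 193 and 197 CPM. Acta2, smooth muscle actin, went from 219 and 223 CPM to 160 and 157 CPM (-0.48). Collagens overlap the fibroblast markers, whose summed level moved with the treatment as given above.

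**Figure D3:**
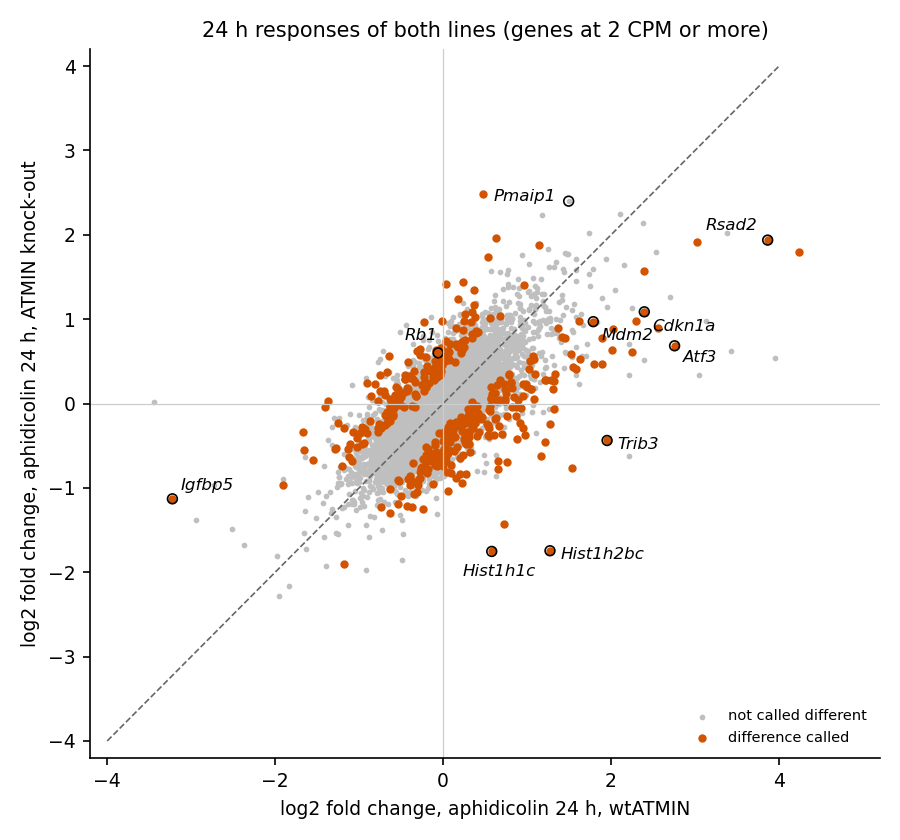
Log2 response to 24 h of aphidicolin in wtATMIN (x) and in the ATMIN knock-out (y) for 13206 genes with at least 2 CPM, with the 410 shown genes whose difference was called in colour and a dashed line at equal response. Most genes lie along the line, and Trib3, Hist1h2bc and Igfbp5 lie far from it.

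The response was then set against that of wtATMIN at the same time. The 2 responses share no library, and in wtATMIN 5331 genes were called (28.8%), 2505 of them higher (13.6%) and 2826 lower (15.3%). Of the 2648 genes called higher in the knock-out 1472 were also called higher in wtATMIN (55.6% of the knock-out's and 58.8% of wtATMIN's calls), and 1836 were called lower in both (62.7% and 65.0%). Only 21 were higher in the knock-out and lower in wtATMIN, and 35 the reverse. A test of the difference of the responses called 450 genes (2.43%), 187 with the higher value in the knock-out (1.01%) and 263 with the lower (1.42%). A fit to these groups alone called 1515, of which 55.4% were higher in the knock-out against 41.6% in the fit to all groups, and the count was between 217 and 269 without any single one of the 8 libraries other than wtATMIN DMSO replicate 1, and 327 without that one.

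Of the 53 genes of the p53 list 10 were called lower in the difference, 1 higher (0 to 1 without a library), and 42 were not called. Cdkn1a was at 6.72 and 5.59 CPM with DMSO and at 32.3 and 33.3 CPM with aphidicolin in wtATMIN. Its DMSO levels were alike in the lines while its aphidicolin levels were over 2-fold apart, and the responses differed by -1.31 ± 0.25 (adjusted p = 0.00309). Without DMSO replicate 1 of the knock-out that difference was -0.99 and was no longer called. Mdm2 went from 62.2 and 62.6 CPM to 210 and 221 CPM in wtATMIN, and its difference was -0.82 ± 0.09 (adjusted p = 4.27e-07). For Trp53inp1 the difference was -1.10, for the death receptor gene Fas -1.34, and for Perp -1.14. Pmaip1 went against this order, with a log2 change of 2.4 in the knock-out and 1.5 in wtATMIN, a difference that was not called.

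Of 97 interferon and innate immunity genes 50 were called higher in the knock-out and 62 in wtATMIN, and 10 were called lower in the difference and 2 higher. The 2 became 0 without any single library, with DESeq2 and with library size only. The 10 became 6 without wtATMIN DMSO replicate 1, 5 without its DMSO replicate 2 and 6 without its aphidicolin replicate 1. Rsad2 was at 0.571 and 0.608 CPM with DMSO and at 8.07 and 9.27 CPM with aphidicolin in wtATMIN. The lines differed more with DMSO than with aphidicolin, and the difference of responses was -1.93 (adjusted p = 0.00516), which was lost without wtATMIN DMSO replicate 1. For Isg15 the difference was -0.64 (adjusted p = 0.0127), and it was lost under 7 alternatives. The chemokines Ccl2 (-1.42), Ccl5 (-1.63) and Cxcl10 (-0.83) also responded less in the knock-out, and 5 of the 14 chemokines were called lower in the difference. Ccl5 had a log2 change of 0.62 in the knock-out and 2.24 in wtATMIN.

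Of 92 replication genes tested, 49 were called higher and 8 lower in the knock-out, 23 and 22 in wtATMIN, and 16 were called higher in the difference and 1 lower, with 75 not called. That 16 became 9 without knock-out DMSO replicate 1, 8 without wtATMIN DMSO replicate 2 and 37 in the fit to the compared groups. Rb1 was at 39.5 and 42.7 CPM with DMSO and at 40.3 and 38.4 CPM with aphidicolin in wtATMIN, which overlap, and its responses differed by 0.66 (adjusted p = 0.00295). Without knock-out DMSO replicate 1 the Rb1 difference was 0.56 and was not called. E2f7 (0.48), Rrm2 (0.45), Clspn (0.46) and Spc25 (0.64) had larger responses in the knock-out as well, and the call for E2f7 was lost in 4 of the fits that leave out a library. Cdc20 had a change of 0.03 in wtATMIN, and its difference was -0.63.

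Histones gave the widest gap between the lines. Of the 59 genes 10 were called higher and 1 lower in wtATMIN, against 0 and 21 in the knock-out, and 12 differed, all with the lower response in the knock-out. That count fell to between 7 and 9 when a library was left out, and to 7 without knock-out DMSO replicate 1, aphidicolin replicate 1 or 2, or wtATMIN DMSO or aphidicolin replicate 2. Hist1h2bc was at 11.2 and 11.5 CPM with DMSO in wtATMIN, close to the knock-out, and at 27.7 and 27.1 CPM with aphidicolin. Aphidicolin libraries thus lay on opposite sides of the DMSO libraries in the 2 lines, and the responses differed by -3.02 ± 0.22 (adjusted p = 3.21e-11). For Hist1h1c, at 20.1 and 19.5 CPM with DMSO and 30.9 and 28.2 CPM with aphidicolin in wtATMIN, the difference was -2.33 ± 0.18. Slbp differed by 0.50 (adjusted p = 0.0069), a call lost in 3 of the fits that leave out a library.

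Stress and growth factor genes include the other wide differences. The list of the integrated stress and unfolded protein response had 6 of 21 called higher and 8 lower in the knock-out. In the difference between lines 4 of these genes were called lower, 0 higher and 17 not called. Of 16 AP-1 and EGR genes 6 were called lower in the difference and 0 higher. The insulin-like growth factor system had 1 of 11 lower and 2 higher. Trib3, a pseudokinase that the stress factors ATF4 and CHOP induce, was at 63.8 and 61.2 CPM with DMSO and at 46.2 CPM in both aphidicolin libraries of the knock-out. In wtATMIN it stood at 7.12 and 6.38 CPM with DMSO and at 26.3 CPM in both aphidicolin libraries, so the knock-out was the higher line in every condition while its aphidicolin level was the lower of its own pair. The responses were -0.44 and 1.95 and differed by -2.39 ± 0.16 (adjusted p = 2.79e-12). Atf3, a stress-induced factor, had a log2 change of 0.68 in the knock-out and 2.76 in wtATMIN (difference -2.07), and Ddit3, the gene of CHOP, of -0.23 and 0.92 (difference -1.15). Inhba, an activin subunit, fell by 0.37 in the knock-out and rose in wtATMIN by 0.98 (difference -1.35). Igfbp5, a binding protein of insulin-like growth factors, fell by 1.13 in the knock-out and by 3.22 in wtATMIN (difference 2.09), and Col3a1 by 0.53 and 1.28 (difference 0.75). Acta2 differed by 0.48. These 2 genes did not speak for their lists. Of 20 collagens 1 was called higher in the difference and 1 lower, and of 14 contractile genes 1 higher and 0 lower. Of all 97 genes of matrix, TGF-beta and contraction 4 were called higher and 9 lower.

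Metabolic lists had the same direction in both lines. Glycolysis and hypoxia genes had 18 of 20 called lower in the knock-out and 13 in wtATMIN, and 5 were called lower in the difference, though only 1 to 3 when a library was left out. Aldoa, which fell by 0.42 in wtATMIN, differed by -0.47 (adjusted p = 0.00733), a call lost without wtATMIN DMSO replicate 2. Cholesterol synthesis had 16 of 20 lower in the knock-out and 8 in wtATMIN, and 3 differed, among them Lss (-0.50, lost in 2 of the fits that leave out a library). Without any single library other than knock-out DMSO replicate 1, at most 1 of the 3 was called.

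**Figure D4:**
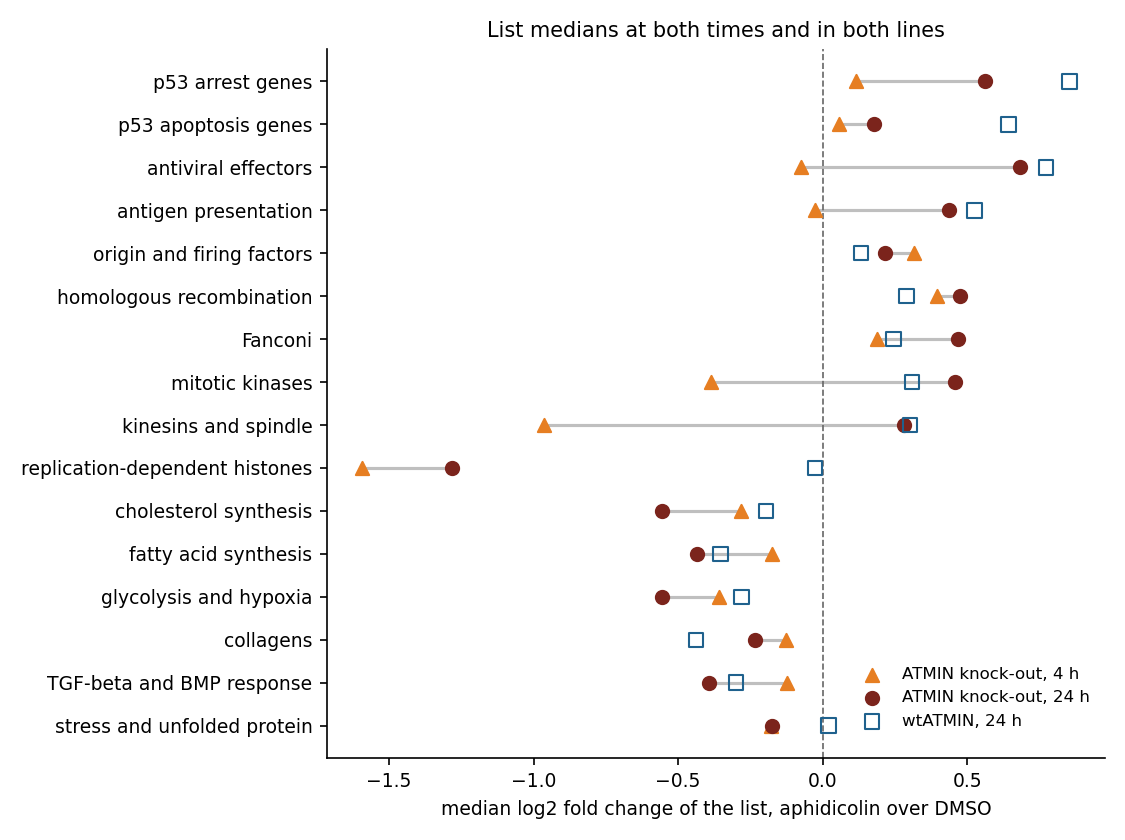
Median log2 response of the tested members of each gene list for the ATMIN knock-out at 4 h (triangle), the knock-out at 24 h (circle) and wtATMIN at 24 h (square). Kinesins and spindle genes sit at -0.96 at 4 h and at 0.28 at 24 h in the knock-out, and replication-dependent histones at -1.59 and -1.28, against -0.03 in wtATMIN.

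Time changed much of the response in the knock-out line. At 4 h 3768 genes were called (20.4%), 1753 higher (9.48%) and 2015 lower (10.9%). Of these 447 were higher at both times (16.9% of the 24 h and 25.5% of the 4 h calls) and 673 lower at both (23% and 33.4%). Another 328 genes were higher at 24 h and lower at 4 h, and 348 the reverse. The test of the difference between times called 3902 genes (21.1%), 1993 with the higher value at 24 h (10.8%) and 1909 with the lower (10.3%). With libraries scaled by size alone the split was 2538 higher and 1284 lower (66.4% against 51.1% higher). The 4 h libraries of this line carried between 13535 and 32564 CPM of the ribosomal sequence Gm42418, against 321 to 576 CPM at 24 h, and its part in the difference was not tested.

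Mitotic genes turned direction. Of 90 tested 63 were called lower and 8 higher at 4 h, and 72 were called higher and 4 lower in the difference. Kinesins and spindle genes had 0 of 21 higher and 21 lower at 4 h, with a median of -0.96, and Nusap1 stood at -1.60 there. Cdc20, at -1.65 at 4 h, was lower with aphidicolin at both times. Targets of p53 had 11 higher and 11 lower of 53 at 4 h, and 25 were called higher in the difference. Mdm2 had a change of -0.06 at 4 h and Cdkn1a of -0.09, with differences between times of 1.04 and 1.17. Trp53inp1 differed by 2.71.

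Interferon genes had 5 higher and 8 lower of 97 at 4 h, and 33 were called higher in the difference. Rsad2 (2.80) and Zbp1 (2.5), the sensor of Z-form nucleic acid, were among the widest. The call for Rsad2 was lost without the 4 h libraries aphidicolin replicate 1 (2.35) or DMSO replicate 1 (2.63), and that for Zbp1 without aphidicolin replicate 2 (2.25) or DMSO replicate 2 (2.17) of 4 h. NF-kB genes and chemokines did not follow: 9 of 14 and 6 of 14 were called higher at 4 h. Ccl7, a monocyte chemokine, stood at 2.00 at 4 h and at -0.15 at 24 h, a difference of -2.15.

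At 4 h 53 of 92 replication genes were called higher and 3 lower, and of 21 recombination genes 12 were called higher and 1 lower. Of 15 Fanconi genes 4 were called higher then, of 25 checkpoint genes 8 higher and 5 lower, and of 10 translesion polymerase genes 1 higher. The MCM helicase and licensing list moved from 9 of 10 higher at 4 h to 4 higher and 3 lower at 24 h (1 lower without any single 24 h library), and 7 were called lower in the difference. Replication-dependent histones had 44 of 59 lower at 4 h and 21 at 24 h, with 4 called higher and 1 lower in the difference. Under the alternatives these were 0 to 5 and 0 to 1, with 0 higher without knock-out 24 h DMSO replicate 2, 4 h aphidicolin replicate 1 or 4 h DMSO replicate 2. At 4 h cholesterol synthesis had 12 of 20 called lower and 1 higher, and glycolysis 18 of 20 lower and 2 higher. Both lists were thus mostly lower at both times. Dynll1 differed between times by 0.39, a call lost without 4 h aphidicolin replicate 1 (0.30).

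Genes were also grouped by genomic span, since long genes take longest to transcribe and to replicate. Of the tested genes 18124 had a span. The median log2 change in the knock-out at 24 h was -0.08 for 7037 genes under 10 kb, 0.07 for 4952 genes of 10 to 30 kb, 0.07 for 4188 genes of 30 to 100 kb, -0.07 for 1567 genes of 100 to 300 kb and -0.18 for 380 genes over 300 kb. The longest and the shortest genes were thus the lower ones. Over 300 kb 3.68% were called higher and 27.9% lower, against 21.7% and 12.8% between 30 and 100 kb. Among genes with a mean of at least 10 CPM the median over 300 kb was lower, at -0.36. In wtATMIN the median over 300 kb was -0.47, and in the knock-out at 4 h it was -0.14. Neither the order of these medians nor the gap between lines was tested.

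**Figure D5:**
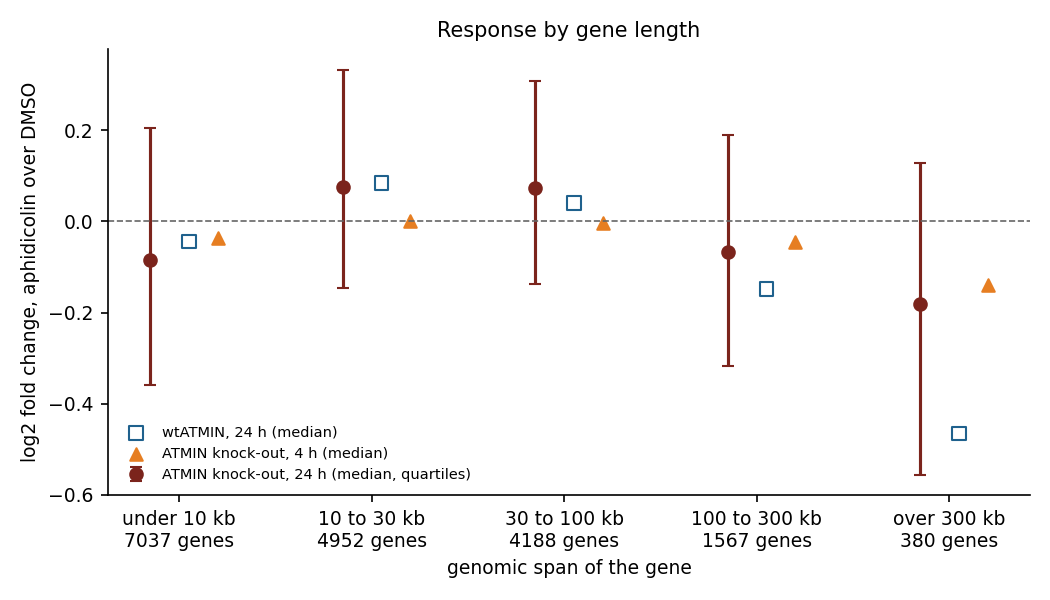
Median log2 response by genomic span of the gene (bars from the first to the third quartile) for the ATMIN knock-out at 24 h, with the medians of wtATMIN at 24 h and of the knock-out at 4 h. Genes over 300 kb have the lowest median in all 3 series, at -0.18, -0.47 and -0.14.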

How the data were processed

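RNA of 32 mouse embryonic fibroblast samples was measured from libraries of the Illumina TruSeq RNA kit (version 2), per the labels' protocols. The authors deposited raw read counts for 39017 Ensembl genes. The submitters' processing notes name TopHat2 2.0.13, Bowtie2 2.4.0 and DESeq2 1.6.3, with build mm10. The counting tool and strand setting are not given in the sources used here, so a gene's reads cannot be separated from those of an overlapping or antisense one. Columns marked AT were taken as aphidicolin and those marked UT as DMSO, since the labels hold no other treatment. Symbols came from GENCODE M21, and from the authors' deposited tables for retired identifiers.

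The test of these counts used R 4.3.3 and edgeR 4.0.16. A filter by group (filterByExpr) left 18484 genes, and libraries were scaled by TMM. A single quasi-likelihood model (estimateDisp and glmQLFit with robust set, glmQLFTest) covered all 32 samples in 16 groups. The spread of each gene was estimated over all groups together. As a summary over genes, the common coefficient of biological variation was 0.0643. P-values were adjusted by Benjamini-Hochberg over all tested genes, with calls made where the adjusted p was under 0.05. A difference of responses is 1 contrast of that model, and the differences share the 4 libraries of the 24 h knock-out. Precision rests on 15250120 to 17311187 reads per library in the 4 samples.

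Genes named are Atmin, Atm, Dynll1, Trp53, Cdkn1a, Mdm2, Chek1 and H2afx, the 10 largest rises and 10 largest falls among called genes with a mean of at least 2 CPM (clone and predicted-gene names left out), the 5 largest and 5 smallest called differences by the same rule, and members of 50 gene lists. From each list up to 4 members with the smallest p in each direction were taken, and others where their role is described. Genes taken by a small p were chosen for groups that stand apart, so a lack of overlap adds no support to the test. Another 22 list members were picked for the difference between lines with their values seen. Some genes that the rule takes are not reported here. The members and lists were chosen with earlier results of these data known, so lists are given as counts and medians beside those of all genes, with no test. Promoter sequences are RefSeq's on GRCm38.p6. The fit was repeated with DESeq2 1.42.0, with RLE size factors, with library sizes alone, without the filter, with a replicate block, on the compared groups alone, and without each library in turn.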

Additional observations from a re-analysis of the deposited data

Results flagged for a closer look

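Differences between responses that passed the test were looked at again. Between the lines 450 genes differed at 24 h, and between 24 h and 4 h in the knock-out 3902 did.

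Genes whose response was lower in the knock-out than in wtATMIN include Cd74 (-2.44), the invariant chain of class II histocompatibility molecules. It was at 1.43 and 1.2 CPM with DMSO and at 5.14 and 4.06 CPM with aphidicolin in the knock-out, and at 0.307 and 0.365 CPM and then 6.25 and 6.56 CPM in wtATMIN. With DMSO the knock-out was the higher line, and with aphidicolin it was the lower line by a smaller factor. The call was lost in 4 of the fits that leave out a library. Rftn1 (-2.31), a lipid raft protein, fell from 44.4 and 45.2 CPM to 26.1 and 26.4 CPM in the knock-out. In wtATMIN it was at 0.176 and 0.182 CPM with DMSO and at 0.588 and 0.473 CPM with aphidicolin, and the call was lost in 3 such fits. The others lower in the knock-out were Hist1h2bc (-3.02), Hist1h1c (-2.33), Trib3 (-2.39), Atf3 (-2.07), Rsad2 (-1.93), Ccl5 (-1.63), Ccl2 (-1.42), Inhba (-1.35), Fas (-1.34), Cdkn1a (-1.31), Ddit3 (-1.15), Perp (-1.14), Trp53inp1 (-1.10), Cxcl10 (-0.83), Mdm2 (-0.82), Isg15 (-0.64), Cdc20 (-0.63), Lss (-0.50) and Aldoa (-0.47).

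Genes whose response was higher in the knock-out include H19 (1.40), an imprinted noncoding RNA, at 4.30 and 4.55 CPM with DMSO and 4.77 and 4.24 CPM with aphidicolin in the knock-out. Its wtATMIN levels were 34 and 35.5 CPM with DMSO and 13.7 and 13.2 CPM with aphidicolin, so DMSO and aphidicolin libraries overlapped in the knock-out and not in wtATMIN. Hr (1.38), a corepressor, went from 1.31 and 1.39 CPM to 2.99 and 4.30 CPM in the knock-out and stood between 46.5 and 55.3 CPM in wtATMIN, and was lost without knock-out aphidicolin replicate 2 (1.11). Aff3 (1.36), a gene of the super elongation complex family, was lost under 7 alternatives, and Kirrel3 (1.33), a cell adhesion gene, in 3 of the fits that leave out a library. The remaining values were Igfbp5 (2.09), Col3a1 (0.75), Rb1 (0.66), Spc25 (0.64), Dynll1 (0.56), Slbp (0.50), E2f7 (0.48), Acta2 (0.48), Clspn (0.46) and Rrm2 (0.45).

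Between times, Sema7a (-3.24), a membrane semaphorin, was at 10.5 and 9.65 CPM with DMSO and at 99.1 and 117 CPM with aphidicolin at 4 h. At 24 h it was at 3.11 and 3.28 CPM with DMSO and at 3.30 and 3.95 CPM with aphidicolin, so its rise was seen at 4 h and not called at 24 h. Ccng2 (2.90), a cyclin of arrested cells, fell from 30.5 and 29 CPM to 6.49 and 6.44 CPM at 4 h and rose from 39.7 and 40.6 CPM to 66.4 and 64.1 CPM at 24 h. Nipal3 (3.23), a magnesium transporter family member, turned the same way. Dio3 (-2.5), the thrombin receptor gene Thbd (-2.17) and Ccl7 (-2.15) responded lower at 24 h. Rsad2 (2.80), Trp53inp1 (2.71), Zbp1 (2.5), Cdkn1a (1.17), Mdm2 (1.04) and Dynll1 (0.39) responded higher at 24 h, with the losses given above for Rsad2, Zbp1 and Dynll1.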

How the results depend on the processing

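The count of genes called after 24 h in the knock-out lay between 3857 and 4057 without a single library, at 5006 with DESeq2 and at 7309 in a fit to the compared groups. Genes that differed between lines numbered 217 to 327 without a single library, 1515 in a fit to the compared groups and 529 with no filter on low counts, and those higher in the knock-out were then 55.4% and 52.9%, against 41.6%. Genes that differed between times numbered 2925 to 3254 without a single library. No pairing by replicate number was seen. Deviations of same-numbered samples correlated at 0.0187 in the knock-out at 24 h, 0.00442 in wtATMIN and -0.00216 in the knock-out at 4 h. Values near 0 cannot exclude a pairing with a small effect. With the replicate block 5231, 348 and 3476 genes were called in these comparisons, in place of 5575, 450 and 3902. Among named genes, 3497 values under an alternative stayed on their side of the threshold, 215 were no longer called, 5 became called, and 0 called values changed sign. Values that were not called changed sign for Trp53 (-0.07, and 0.01 with library size only), H19 (0.03, and -0.06 without aphidicolin replicate 1) and Aff3 (-0.05, and 0.12 without DMSO replicate 1). With genes of at least 10 CPM the medians by span were -0.132, 0.0386, 0.0547, -0.106 and -0.360 from the shortest to the longest class, in place of -0.08, 0.07, 0.07, -0.07 and -0.18, and the cause was not tested. Without a library, its lone partner is assumed to vary like the other groups. With 2 samples per group, genes near 1 CPM, such as most histones, are the least certain.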

Other observations

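Circadian clock genes were lower in part after 24 h in the knock-out, with 8 of 18 called lower and 2 higher, the latter 0 to 1 when a library was left out. Dbp, a clock output factor, went from 15 and 16.9 CPM to 6.24 and 7.66 CPM and fell by 1.2 ± 0.18 (adjusted p = 2.6e-06). Bhlhe41, a clock repressor, fell by 1.08, from 13.7 and 11.8 CPM to 6.19 and 5.83 CPM. Among 13 heat shock chaperones 5 were called lower and 1 higher. As shares, 44.4% of the clock genes and 38.5% of the chaperones were called lower, against 15.8% of all genes. Higher calls were 11.1% and 7.69%, under the 14.3% of all genes. The mitochondrial pair Hspe1 (-0.51) and Hspd1 (-0.44) fell together, and Hspb1, a small chaperone, rose from 2.57 and 2.15 CPM to 6.14 and 4.65 CPM (1.2 ± 0.25).

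Lysosome and autophagy genes had 8 of 25 called higher and 2 lower, and 5 called higher without DMSO replicate 1 or without aphidicolin replicate 1. Neu1, a lysosomal sialidase, rose by 0.80, from 27.3 and 30 CPM to 50.1 and 49.3 CPM. At 4 h 15 of these genes were called lower and 0 higher, and 14 were called higher in the difference between times. Of 16 NRF2 targets 5 were called higher and 1 lower (3 higher without DMSO replicate 1 or without aphidicolin replicate 1), with Nqo1, a quinone reductase, at 24.5 and 22.5 CPM with aphidicolin against 16.8 and 16.9 CPM with DMSO (0.48). Over all genes 14.3% were called higher and 15.8% lower, against 32% and 8% of the lysosome list and 31.25% and 6.25% of the NRF2 list. Among 16 AP-1 and EGR genes 4 were called higher and 4 lower (25% each way), with Fos rising by 1.05 and Klf4 falling by 0.67. With libraries scaled by size alone, and in the fit to the compared groups, 7 were called higher.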
